A study of Mus musculus with 4 samples.

Results

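Platelet-derived growth factors (PDGFs) are secreted dimers that signal through a pair of receptor tyrosine kinases. The 5 genes described here are the ligand genes Pdgfa, Pdgfb and Pdgfc and the receptor genes Pdgfra and Pdgfrb, all found by symbol among the 19321 genes of the table. They were followed in C57BL/6 mice, in XX gonads collected daily from E11.5 to E14.5, with no treatment or engineered allele named in the labels. TrypLE was used to dissociate the tissue. Each stage was profiled as 1 droplet-based single-cell library (10x Chromium, 3′ chemistry), so stage and library cannot be told apart and no difference between stages could be tested. The labels do not say how many embryos went into a library. The design text gives cell heterogeneity around the start of meiosis as the question. Values are given in stage order, earliest first, unless a stage is named.

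PDGF-A chains mainly bind PDGFRα, PDGF-B chains bind PDGFRα and PDGFRβ, and PDGF-C, which needs its CUB domain cleaved off, binds PDGFRα. In many organs the ligands come from epithelium or endothelium and the receptors sit on mesenchyme. The pairing of endothelial Pdgfb with Pdgfrb on pericytes, the mural cells of small vessels, is the best known example. In the fetal gonad, Pdgfra is best known for its part in interstitial and Leydig cell development of the testis.

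Cells were sorted into 5 classes by unique molecular identifiers (UMIs, 1 per captured RNA molecule) of genes other than the 5 followed. Interstitial cells had UMIs of Col1a1 and Tcf21, surface epithelial cells of Upk3b with Krt19 or Krt7, and endothelial cells of Pecam1 and Cdh5. Supporting cells, the precursors of granulosa cells, had UMIs of at least 3 of Fst, Wnt4, Wnt6, Irx3 and Runx1. Germ cells had UMIs of at least 3 of Dazl, Ddx4, Dnd1, Mael, Dppa5a and Mov10l1. Cells that met exactly 1 gate formed the classes. In stage order these were 297, 210, 594 and 202 interstitial, 601, 561, 390 and 344 surface epithelial, 2118, 2126, 1717 and 655 supporting, 132, 174, 86 and 36 endothelial and 224, 596, 707 and 2276 germ cells. A further 1250, 730, 807 and 632 cells met no gate, and 182, 357, 451 and 566 met more than 1. The libraries held 4787 to 4916 cells with a median of 11361 to 14258 UMIs per cell, and 175 barcodes occurred in 2 or more libraries (354 cells). Each class carried the largest summed level of its own marker list at every stage. Foxl2, a granulosa marker, had 4, 4, 7 and 1 UMIs in supporting cells and 1 UMI per library in germ cells. It had none in interstitial, surface epithelial or endothelial cells, and was too sparse to tell the classes apart. The lists contain the gate genes, and the interstitial list contains Pdgfra, so the sums describe the gates and are no test of them.

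Upstream sequence is shown for the 3 members that the reference table covers, Pdgfa, Pdgfc and Pdgfra, to set the base composition of 2 ligand genes beside that of a receptor gene. The libraries read the 3′ ends of transcripts and do not show which start was used. Each line holds the 250 bases before an annotated start, 5′ to 3′ on the gene's strand, from RefSeq on build GRCm38.p6. Capitals mark GGGCGG or its reverse complement CCGCCC (the GC box) and CANNTG (the E-box), searched on both strands.
Pdgfa, chr5:138994945-138995194, minus strand: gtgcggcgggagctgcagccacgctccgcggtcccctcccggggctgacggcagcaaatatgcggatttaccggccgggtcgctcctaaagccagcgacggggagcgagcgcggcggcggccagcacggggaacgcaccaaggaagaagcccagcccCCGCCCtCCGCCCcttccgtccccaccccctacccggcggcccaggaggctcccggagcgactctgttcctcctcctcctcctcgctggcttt
Pdgfc, chr3:81036166-81036415, plus strand: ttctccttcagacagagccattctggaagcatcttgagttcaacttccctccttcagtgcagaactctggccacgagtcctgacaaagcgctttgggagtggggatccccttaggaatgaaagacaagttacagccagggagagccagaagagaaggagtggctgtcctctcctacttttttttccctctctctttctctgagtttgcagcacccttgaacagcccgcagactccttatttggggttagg
Pdgfra, chr5:75152001-75152250, plus strand: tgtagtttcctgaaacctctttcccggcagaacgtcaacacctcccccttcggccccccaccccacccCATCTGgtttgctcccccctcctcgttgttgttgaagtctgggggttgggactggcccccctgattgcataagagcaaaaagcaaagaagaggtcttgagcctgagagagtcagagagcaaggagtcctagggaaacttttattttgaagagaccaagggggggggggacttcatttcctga
The Pdgfa window was 72.4% G or C with 28 CG pairs and 2 GC boxes. A further Pdgfa start in the table, at chr5:138994282-138994531, had 66.4%, 19 CG pairs and 1 GC box. The Pdgfc window had 50.8% and 3 CG pairs with neither motif, and the Pdgfra window 54.4% and 4 CG pairs with 1 E-box, CATCTG. None of the 4 windows held TATAAA. Over 32851 windows of 250 bases, the median was 52.4% with 6 CG pairs, and 32.7% held a GC box, 66.2% an E-box and 12.4% TATAAA. A motif match describes letters and is not a binding site. The Pdgfa and Pdgfra windows lie inside the annotated spans of their genes.

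Levels are UMIs summed over the cells of a class, per 1000000 UMIs of that class (CPM), with exact Poisson 95% intervals that cover counting error only. Fewer transcripts per cell and fewer expressing cells cannot be told apart in a summed level, so shares of cells are given beside it. Shares count cells with a UMI of the gene after every cell was reduced to 5000 randomly drawn UMIs, which left out no cell of any class. Median depth before that was 9080 to 13067 UMIs in interstitial, 9885.5 to 15556 in surface epithelial, 9529 to 13821 in supporting, 10544 to 15352.5 in endothelial and 15369 to 30979 in germ cells. Erythroid cells, with over 10% of UMIs from globin genes and no gate met, served as background at 12220 to 26320 UMIs. They numbered 81, 9, 15 and 68. No level is compared between genes. A difference was called by a rule of size with no p-value. A gene had to have 50 UMIs or more in sum, 20 CPM or more on the higher side and a ratio of 2 or more, and its Poisson intervals had to be apart.

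Pdgfa encodes the PDGF-A chain (chromosome 5, 138976014 to 139000792). Its level in germ cells was 209, 233, 172 and 98.8 CPM, with intervals of 198 to 219.6 for the earliest library and 95.7 to 102.05 for the latest. In surface epithelial cells it was 34.9, 55.98, 77.2 and 105 CPM, with intervals of 31.4 to 38.8 and 95.2 to 116 for the same libraries. Germ cells were highest at E12.5 and lowest at E14.5, and surface epithelium was higher in each library than in the one before. Germ cells were therefore 5.98 times above surface epithelium at E11.5, while at E14.5 the intervals of these classes overlapped. With cells that also met another gate kept, E14.5 gave 97.6 CPM in germ cells (94.6 to 100.7) and 112 in surface epithelium (104.9 to 119). Supporting cells stayed between 34.0 and 44.8 CPM, interstitial cells between 8.37 and 17.3, and endothelial cells between 4.85 and 11.8 on 6 to 16 UMIs. Both low levels depended on the gate. With cells that also met another gate kept, endothelial cells were at 27.7 to 44.9 CPM on 57 to 105 UMIs, and interstitial cells at 22.2, 26.2, 22.5 and 27.6 CPM.

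Between the E11.5 and E14.5 libraries the log2 change of Pdgfa was -1.08 in germ cells (95% interval -1.17 to -0.99) and 1.59 in surface epithelium (1.38 to 1.81). The rule called the germ cell value lower, as it did 8.43% of the genes tested there, while it called 22.7% higher. It called the surface epithelial value higher, as it did 5.01% of genes. The germ cell comparison depended on scaling in size: by medians of gene ratios the change was -1.48, since that scaling moved the germ cell comparison by 0.40. In surface epithelium, the summed list of 10 supporting markers was 598, 644, 702 and 961 CPM and that of 8 erythroid markers 1117, 3688, 3603 and 13622 CPM. Their part in the Pdgfa change was not tested. The list of 8 germ markers was at most 51.5 CPM there, against 3016 to 4284 in germ cells. In supporting cells the Pdgfa change was -0.13 (-0.31 to 0.05) and was not called. The sign in supporting cells depended on the gate. With cells that also met another gate kept, it was 0.65 (0.53 to 0.76), and the E14.5 level was 72.3 instead of 41.0 CPM. The cells meeting the supporting and the surface epithelial gate numbered 78, 194, 250 and 324 in stage order, and their Pdgfa level was 47.0, 68.6, 92.5 and 128 CPM.

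Within each library, Pdgfa was higher in germ than in supporting cells at all 4 stages, by 4.66, 6.85, 4.92 and 2.41 times in stage order. The rule called 15.2, 17.1, 19.7 and 20.2% of genes higher in that contrast. Supporting cells were above interstitial cells by 2.59, 2.59, 4.17 and 4.20 times. That call, lower in interstitial than in supporting cells, was made for 10.5, 10.4, 11.7 and 12% of genes. Surface epithelium was called above supporting cells at E13.5 (2.21 times) and E14.5 (2.57 times), where 7.54 and 6.28% of genes were called higher. At E11.5 the ratio was 0.781, so surface epithelium was the lower of these classes there. Several of these calls depended on leaving out the cells of more than 1 gate. With those cells kept, germ over supporting cells was 1.35 at E14.5, supporting over interstitial cells 1.66 at E12.5, and surface epithelium over supporting cells 1.80 at E13.5 and 1.55 in the latest library, none of them called. Germ over supporting cells was then still called in the earlier 3 libraries, at 4.46, 5.28 and 3.71, and supporting over interstitial cells at the other stages, at 2.07, 2.02 and 2.62.

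At 5000 UMIs per cell, 57.1, 68.0, 56.3 and 35.7% of germ cells had a Pdgfa UMI, and with all UMIs 97.3, 98.7, 94.8 and 68.5% had one. The share in surface epithelium was 12.6, 22.3, 27.4 and 39.2%, and 37.1, 49.6, 53.8 and 61.0% with all UMIs. It was 14.2 to 17.1% in supporting cells and 3.70 to 6.40% in interstitial cells, and 28.7 to 39.3% and 6.73 to 17.1% with all UMIs. In erythroid cells, which should lack the transcript, it was 0 of 81, 1 of 9, 1 of 15 and 1 of 68 cells. With so few erythroid cells at E12.5 and E13.5, the interstitial, supporting and surface epithelial shares were not shown to be above background there. The shares in germ and in surface epithelial cells followed the order of the summed levels. Germ cells carried 36.6% of all Pdgfa UMIs of the library at E11.5 and 62.0, 60.3 and 68.9% at the later stages, while their number among the classed cells went from 224 to 2276.

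**Figure D1:**
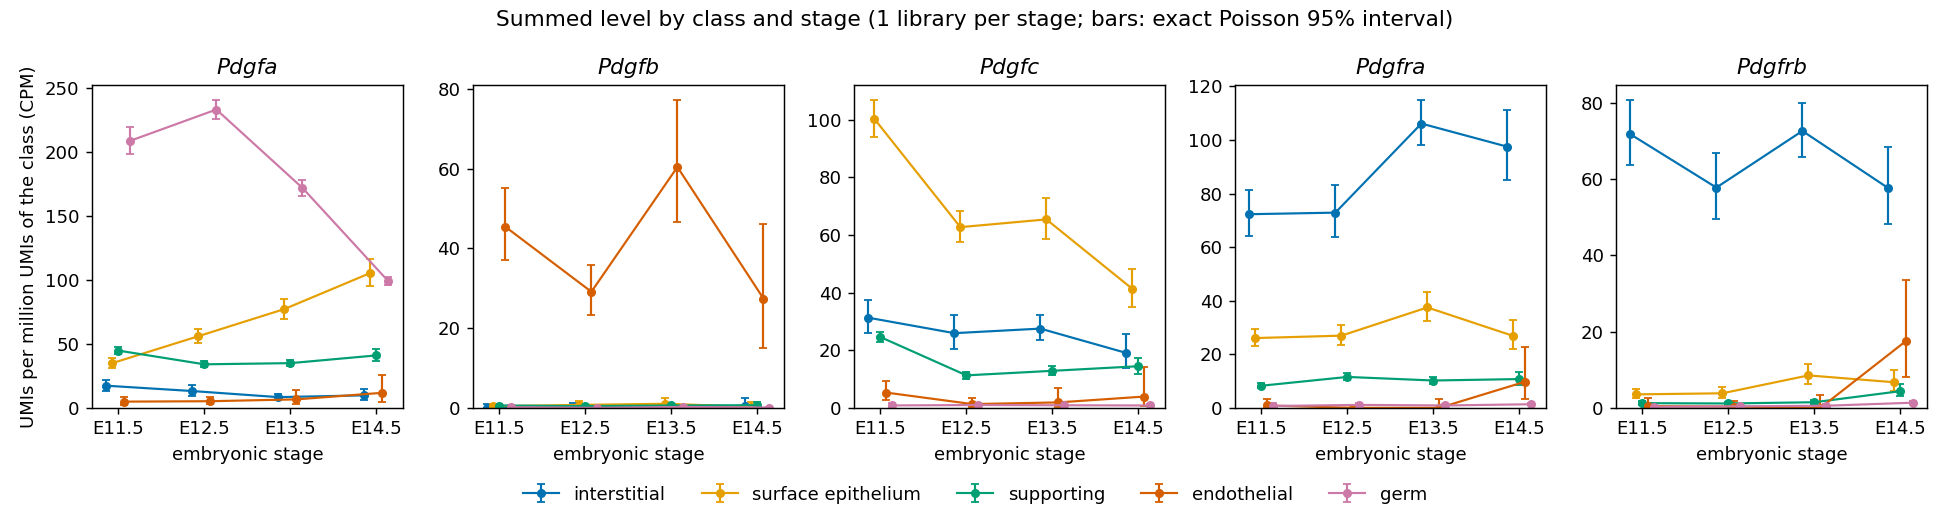
Summed levels of the 5 genes (CPM, 1 linear scale per gene) at the 4 stages in the 5 classes, with exact Poisson 95% intervals. Germ cells led for Pdgfa until E13.5 and stood at 98.8 CPM beside 105 in surface epithelium at E14.5, endothelial cells led for Pdgfb, surface epithelium for Pdgfc, and interstitial cells for both receptors.

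Germ cells were also split by UMIs of meiosis genes, a split chosen after values had been seen. Stra8, which is induced by retinoic acid and is required for meiotic initiation, had a UMI in 217 of 707 germ cells at E13.5 and, a day later, in 2031 of 2276, at 5000 UMIs per cell. In the E13.5 library the Pdgfa level was 123 CPM in germ cells with Stra8 and 191 in those without (log2 -0.64, -0.77 to -0.51). At E14.5 it was 89.4 and 159 CPM (log2 -0.83, -0.94 to -0.71). The lower level was on the side with Stra8 in both libraries. Sycp3, a component of the synaptonemal complex, gave 138 against 179 CPM and 80.7 against 124 in the same libraries. At E11.5 and E12.5 the intervals of the Sycp3 split included 0, with 16 and 79 cells on the side with Sycp3. Depth differed with the split: at E14.5 the median germ cell with Stra8 had 15046 UMIs and the median cell without it 19752. Its part in the result was not tested. With Mki67, a proliferation marker, the levels were 173 with and 172 CPM without it at E13.5. At E14.5 they were 90.8 and 101 CPM (log2 -0.16, -0.27 to -0.04). Germ cells without Stra8 were themselves at 209, 233, 191 and 159 CPM in stage order. At E11.5 none had a Stra8 UMI at this depth.

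**Figure D2:**
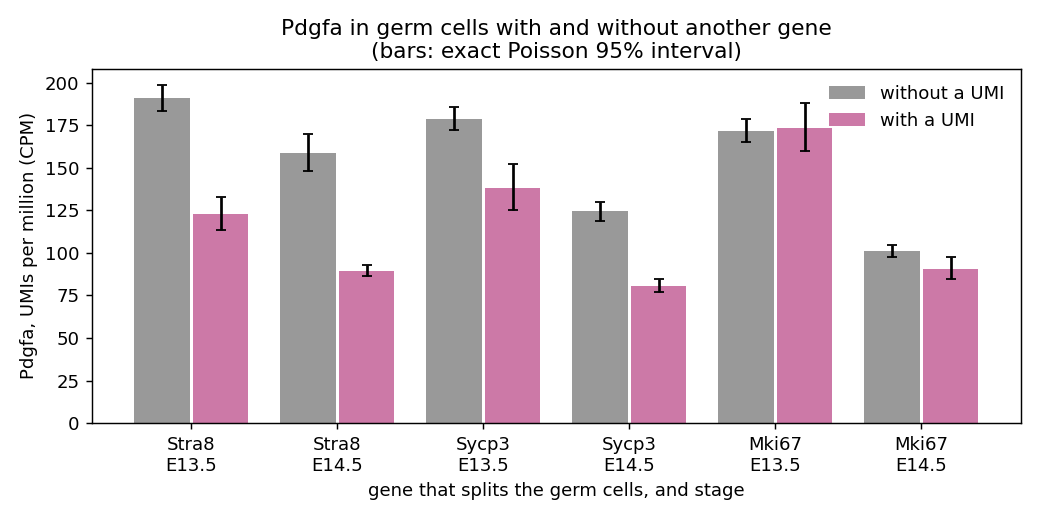
Pdgfa level (CPM, bars from 0) in germ cells with and without a UMI of Stra8, Sycp3 or Mki67 at E13.5 and E14.5, with exact Poisson 95% intervals. The bars with Stra8 (123 and 89.4 CPM) and with Sycp3 (138 and 80.7 CPM) are below those without, and the Mki67 bars at E13.5 are at 173 and 172 CPM.

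Pdgfb encodes the PDGF-B chain (chromosome 15, 79995865 to 80024614) and was concentrated in endothelial cells. Their level was 45.4, 29.1, 60.4 and 27.4 CPM, on 103, 90, 64 and 14 UMIs. The intervals were 37.1 to 55.1, 23.4 to 35.8, 46.5 to 77.2 and 15.00 to 46.0. They went up and down with no common direction, and E14.5 against E11.5 gave a log2 change of -0.73 (-1.65 to 0.08) that was not called. All other classes were at or below 1.01 CPM. Interstitial cells had 0, 0, 1 and 1 UMIs, so endothelial cells were at least 59.5 times higher at E11.5 and at least 29.6 times higher at E12.5, against a floor of 3 UMIs per class. The endothelial over interstitial difference was called in the earlier 3 libraries, where 11, 12.2 and 13.8% of genes were called higher. At E14.5 the 14 endothelial UMIs left Pdgfb under the minimum of 50, with 7.86% of genes called.

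A Pdgfb UMI was found in 18.9, 15.5, 27.9 and 11.1% of endothelial cells at 5000 UMIs and in 45.5, 36.2, 47.7 and 30.6% with all UMIs. No erythroid cell of any library had one. Supporting cells, at 0.442 to 0.663 CPM, had it in 0.153 to 0.329% of cells. At E14.5 the endothelial cells with exactly 1 gate carried 28.6% of the 49 Pdgfb UMIs, and cells with more than 1 gate carried 44.9%. The E13.5 level also depended on the gate: with the cells of more than 1 gate kept, it was 37.7 instead of 60.4 CPM.

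Pdgfc encodes the PDGF-C chain (chromosome 3, 81036416 to 81214040) and was highest in surface epithelium. The level there was 100.4, 62.8, 65.4 and 41.3 CPM, with intervals of 94.2 to 107 for the earliest library and 35.0 to 48.4 for the latest. Between these the log2 change was -1.28 (-1.54 to -1.03), called lower in a contrast where 1.87% of genes were. The summed levels of Pdgfc and Pdgfa in the surface epithelial class thus differed in opposite directions between these libraries. Interstitial cells were at 31.3, 25.9, 27.5 and 19.1 CPM and supporting cells at 24.6, 11.3, 12.9 and 14.46. The supporting cell level differed most between E11.5 and E12.5 (log2 -1.12, -1.32 to -0.93). Germ cells were at 0.819 to 0.985 CPM and endothelial cells at 1.29 to 5.29.

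Surface epithelium was above interstitial cells for Pdgfc by 3.21, 2.42, 2.38 and 2.17 times, called at all 4 stages among 3.54, 4.38, 5.52 and 7.69% of genes called higher. Pdgfa was called higher in the same contrast at all 4 stages, by 2.02, 4.26, 9.22 and 10.8 times. With the cells of more than 1 gate kept, the Pdgfc ratios were 2.07, 1.43, 1.32 and 1.08, so that the call remained at E11.5 alone. The Pdgfa ratios were then 1.63, 2.31, 3.64 and 4.05, with the E11.5 call lost. Over supporting cells the ratios for Pdgfc were 4.08, 5.56, 5.09 and 2.86, where the rule called 9.23, 8.09, 7.54 and 6.28% of genes higher. They were 3.63, 4.005, 3.69 and 2.45 with the cells of more than 1 gate kept, called at each stage both ways. At 5000 UMIs, 38.4, 29.2, 27.7 and 17.2% of surface epithelial cells had a Pdgfc UMI, against 10.9 to 12.8% of interstitial and 0.308 to 0.893% of germ cells. Among erythroid cells 0 of 81, 0 of 9, 1 of 15 and 1 of 68 had one. With all UMIs the surface epithelial share was 74.7, 57.0, 50.3 and 32.3%. Interstitial levels depended on the gate at every stage. With the cells of more than 1 gate kept they were 46.1, 40.4, 44.0 and 34.3 CPM. Cells meeting the interstitial and the surface epithelial gate were at 95.1, 75.6, 106 and 92.9 CPM.

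The share of surface epithelial cells with a UMI of each ligand gene was also counted. Cells with UMIs of Pdgfa and Pdgfc made up 5.32, 6.06, 6.41 and 6.98% of surface epithelial cells at 5000 UMIs. Cells with Pdgfc and no Pdgfa made up 33.1, 23.2, 21.3 and 10.2%, and cells with Pdgfa and no Pdgfc 7.32, 16.2, 21.0 and 32.3%. Pdgfc was found in 42.1% of the cells with Pdgfa and 37.9% of those without in the earliest library, and in 17.8 and 16.7% in the latest. The intervals overlapped at every stage, so no joint occurrence or avoidance of the ligand transcripts was detectable at this depth.

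**Figure D3:**
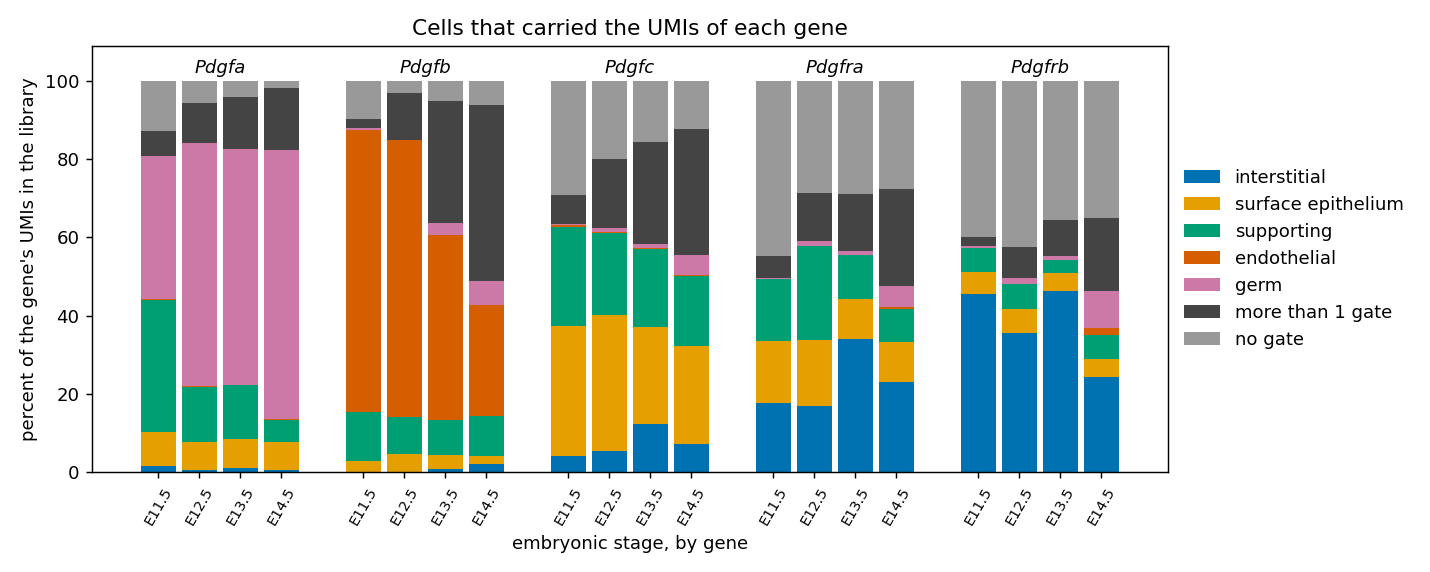
Percent of all UMIs of each gene in a library (stacked bars, 0 to 100%) that lay in each class, in cells with more than 1 gate and in cells with no gate. Germ cells carried most Pdgfa from E12.5 on, endothelial cells 72.03% of Pdgfb at E11.5, and cells with no gate 27.6 to 44.8% of Pdgfra and 34.9 to 42.3% of Pdgfrb.

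Pdgfra encodes PDGFRα (chromosome 5, 75151322 to 75198206). Its level in interstitial cells was 72.3, 72.9, 106 and 97.5 CPM, with intervals of 64.1 to 81.2, 63.6 to 83.1, 97.9 to 115 and 85.03 to 111. The later pair of stages was above the earlier pair with intervals that did not overlap, yet E14.5 over E11.5 was a log2 change of 0.43 (0.17 to 0.69), under the ratio the rule asks for. Surface epithelium was at 26.1, 26.9, 37.5 and 26.8 CPM and supporting cells at 8.25, 11.54, 10.2 and 10.7. Germ cells stayed at or under 1.35 CPM. Endothelial cells had 2, 0, 0 and 5 UMIs.

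Interstitial cells were above supporting cells for Pdgfra by 8.76, 6.32, 10.4 and 9.07 times, called at all 4 stages with 12.2, 11.1, 10.4 and 10.4% of genes called higher. They were above surface epithelium by 2.77, 2.70, 2.83 and 3.64 times, and 6.79, 5.74, 6.77 and 7.79% of genes were called lower in surface epithelium than in interstitial cells. Surface epithelium was in turn called above supporting cells at each stage, by 3.16, 2.34, 3.67 and 2.50 times, in a contrast where 9.23, 8.09, 7.54 and 6.28% of genes were called higher. With the cells of more than 1 gate kept, the last ratio was 1.75 (28.4 against 16.3 CPM) and was not called. Surface epithelial cells also carried the 12 interstitial markers at a summed 833, 953, 1211 and 1141 CPM, Pdgfra included, against 2034 to 3995 in interstitial cells. The part of these transcripts in the Pdgfra level of surface epithelium was not tested. The order interstitial, surface epithelial, supporting, germ therefore held in all 4 libraries. A Pdgfra UMI was found in 24.6, 31.9, 40.1 and 37.1% of interstitial cells at 5000 UMIs and in 54.9, 62.9, 57.2 and 58.4% with all UMIs. At 5000 UMIs the share was 10.5 to 14.6% in surface epithelium, 3.78 to 4.94% in supporting cells and 0 to 0.835% in germ cells. No erythroid cell of the earlier 3 libraries had one. At E14.5, 4.41% of 68 erythroid cells did, beside 4.89% of supporting and 5.56% of 36 endothelial cells, so these shares are not read as expression at that stage.

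Supporting cells with a Mki67 UMI, a split also chosen after values had been seen, had more Pdgfra than the rest at E11.5 and E12.5. At E11.5 they were at 19.3 against 7.81 CPM (log2 1.30, 0.62 to 1.92) and at E12.5 at 24.6 against 10.8 (1.19, 0.63 to 1.70). At E13.5 and E14.5, on 7 and 8 UMIs, the intervals included 0. The same split was also run for Pdgfa and Pdgfc, and in surface epithelial cells, and those values are not given here. No link particular to Pdgfra or to supporting cells is therefore read from it. In interstitial cells the interval of the Mki67 split included 0 for Pdgfra and for Pdgfrb at all 4 stages.

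Pdgfrb encodes PDGFRβ (chromosome 18, 61045127 to 61085067). Interstitial cells were at 71.8, 57.8, 72.6 and 57.6 CPM, with intervals of 63.6 to 80.7, 49.6 to 67.0, 65.9 to 79.9 and 48.1 to 68.4. No direction was shared by the steps between stages, and the E14.5 over E11.5 log2 change was -0.32 (-0.63 to -0.01), not called. By medians of gene ratios it was -0.20, with an interval of -0.51 to 0.11 that included 0. Between E11.5 and E14.5 in interstitial cells, 3 of the 5 genes met the minimums (Pdgfc and both receptors) and none was called, where 3.83% of genes were called higher and 3.52% lower. In supporting cells 2 met them (Pdgfa and Pdgfc) and neither was called, where 6.05% of genes were higher and 3.3% lower. In endothelial cells only Pdgfb met them and was not called, where 2.7% were higher and 3% lower. The remaining genes were too low for the rule to call them. Among these was Pdgfrb in supporting cells, with a log2 change of 1.83 (1.11 to 2.54) at 1.23 and 4.38 CPM, under the CPM minimum.

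Among the classes, Pdgfrb was low outside the interstitial cells. Cells with no gate, however, carried 34.9 to 42.3% of its UMIs, at 12.9, 21.02, 38.5 and 18.7 CPM in stage order. Those that also had the pericyte markers examined below were at 93.9 to 201 CPM, above interstitial cells in every library. Surface epithelium was at 3.53, 3.81, 8.51 and 6.70 CPM and supporting cells at 1.23, 1.14, 1.47 and 4.38, the last on 33 UMIs. Interstitial over supporting ratios were 58.4, 50.6, 49.3 and 13.2, and interstitial over surface epithelial ratios 20.3, 15.1, 8.54 and 8.59, all called. The interstitial over supporting ratios were smaller with the cells of more than 1 gate kept. Interstitial cells were then at 54.7, 41.8, 58.3 and 43.2 CPM and supporting cells at 1.45, 1.60, 3.29 and 7.69. The summed interstitial marker list in supporting cells was 183 to 209 CPM at the earlier 3 stages and 415 at E14.5, and its part in the higher Pdgfrb of that library was not tested. Endothelial cells had 1, 1, 0 and 9 UMIs. With the cells of more than 1 gate kept they had 4, 1, 23 and 32, which gave 25.2 CPM in the latest library. A Pdgfrb UMI was found in 29.0, 22.9, 27.4 and 19.3% of interstitial cells at 5000 UMIs, and in 1.07 to 3.85% of surface epithelial, 0.329 to 2.60% of supporting and 0 to 0.659% of germ cells. Erythroid cells had it in 0 of 81, 1 of 9, 1 of 15 and 0 of 68. With all UMIs the interstitial share was 51.2, 42.9, 41.6 and 38.6%.

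The receptors were next counted in the same interstitial cells. Cells with UMIs of both made up 7.07, 7.14, 10.6 and 8.91% of interstitial cells at 5000 UMIs, and with all UMIs used 26.9, 23.8, 22.1 and 25.2%. Pdgfrb was found in 28.8, 22.4, 26.5 and 24.0% of cells with a Pdgfra UMI. It was found in 29.0, 23.1, 28.1 and 16.5% of cells without one. With all UMIs the shares were 49.1, 37.9, 38.5 and 43.2% in cells with Pdgfra and 53.7, 51.3, 45.7 and 32.1% in those without. The intervals overlapped at every stage both ways, and overlap is not a test. An association or avoidance of the receptor transcripts within interstitial cells was thus not detectable here. Across the 20 class and stage profiles, by contrast, Pearson's r of their log2(CPM + 1) levels was 0.89, a description over profiles that share libraries and classes.

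**Figure D4:**
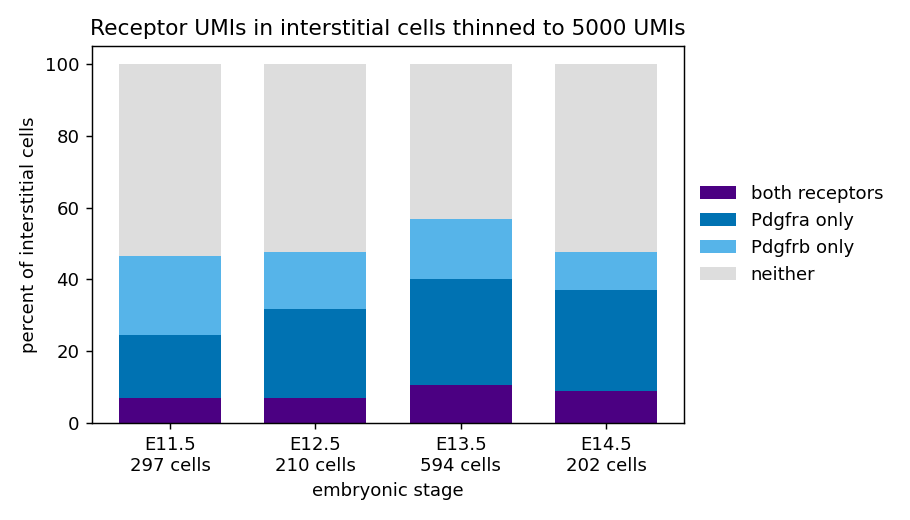
Percent of interstitial cells with UMIs of both receptor genes, of 1 of them, or of neither, after thinning each cell to 5000 UMIs (stacked bars, 0 to 100%). Cells with both made up 7.07 to 10.6%, and cells with neither 43.1 to 53.5%.

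Interstitial cells were split by UMIs of further genes, at 5000 UMIs per cell, to see whether the receptors divided the class. Wt1, a transcription factor of the coelomic lineage and gonadal stroma, had a UMI in most interstitial cells, 257 of 297 at E11.5. Pdgfrb was lower in cells with Wt1 in the earlier 3 libraries, 67.8 against 95.03, 44.0 against 91.4 and 66.0 against 99.8 CPM, with intervals of the log2 ratio below 0. At E14.5 it was 60.9 against 47.2 CPM and the interval included 0 (-0.26 to 1.05). Pdgfc went the other way at all 4 stages, with 35.2, 32.9, 30.6 and 23.4 CPM in cells with Wt1 and 8.64, 9.02, 14.7 and 5.45 in those without. The cells without Wt1 held 5, 8, 17 and 3 Pdgfc UMIs. Pdgfra differed by Wt1 with an interval above 0 at E13.5 alone (112.4 against 80.7 CPM).

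Lum, which encodes the collagen-binding proteoglycan lumican, marked interstitial cells with more Pdgfrb at the later stages. At E13.5 the level was 136 CPM in 56 cells with Lum and 66.3 in 538 without (log2 1.04, 0.65 to 1.41). At E14.5 it was 98.8 in 40 cells and 47.2 in 162 (1.07, 0.51 to 1.60). At E11.5 and E12.5, with 33 and 9 cells with Lum, the intervals included 0. Pdgfra with and without Lum was 44.7 and 75.4 CPM at E11.5 (log2 -0.76) and 145 and 85.5 CPM at E14.5 (log2 0.76), with intervals that did not include 0. With Nr5a1, which encodes the steroidogenic factor SF-1, Pdgfrb was lower at E11.5 (32.0 against 75.6 CPM) and E12.5 (27.3 against 61.0), on 11 and 8 UMIs. Mgp, which encodes matrix Gla protein, went with more Pdgfrb at E12.5 (86.3 against 53.5 CPM) and E13.5 (92.0 against 64.2). Nr2f2, which encodes COUP-TFII, went with more Pdgfrb at E11.5 (77.2 against 55.9 CPM) and more Pdgfra at E13.5 (110.6 against 83.9). The Hedgehog response genes Ptch1 and Gli1 had a UMI in at most 15 and 6 cells of a library. In the 15 cells with Ptch1 at E11.5, Pdgfrb was at 137.8 CPM on 25 UMIs, against 68.6 in the rest. For Nr5a1, Mgp, Nr2f2 and Ptch1 only the stages named are given. Many splits were made, so some intervals would leave out 0 by counting error alone. Differences at single stages are therefore not read as associations.

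Pericyte markers were examined because PDGFRβ is a pericyte receptor. Interstitial cells with UMIs of at least 2 of Rgs5, Cspg4, Notch3, Kcnj8 and Abcc9 numbered 35, 41, 47 and 17, with all UMIs used. Their Pdgfrb level was 118, 116, 127 and 85.6 CPM, against 64.5, 40.4, 67.1 and 55.1 in the other interstitial cells. The interval of the log2 ratio lay above 0 in the earlier 3 libraries and included 0 in the last. Pdgfra ran the opposite way, 67.3, 40.2, 64.4 and 74.9 CPM with the markers and 73.1, 82.6, 110.4 and 99.5 without, with intervals below 0 at E12.5 and E13.5. Their median depth was 12895, 15179, 11360 and 10341 UMIs, against 11512.5, 12745, 9019 and 10282, and its part in the result was not tested. After thinning to 5000 UMIs, 13, 8, 12 and 9 such cells remained, with 131, 176, 164 and 105 CPM of Pdgfrb against 68.9, 52.2, 70.7 and 55.5 in the rest. The summed level of 10 perivascular markers was 239, 339, 281 and 478 CPM in interstitial cells, 28.3 to 83.1 in surface epithelium and 17.6 to 36.3 in supporting cells. Higd1b, 1 of the 10, had no UMI in interstitial cells of any library. Acta2, another of them, gave 77.6, 132.9, 159.8 and 381.5 CPM of the interstitial sums. Rgs5 and Des were lower there at E14.5 than at E11.5 (11.96 against 55.7 and 46.5 against 74.8 CPM). Kcnj8 and Cspg4 were higher (12.4 against 6.11 and 4.87 against 1.78 CPM). The higher E14.5 sum was thus mostly Acta2 and is not read as a rise of the whole list.

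**Figure D5:**
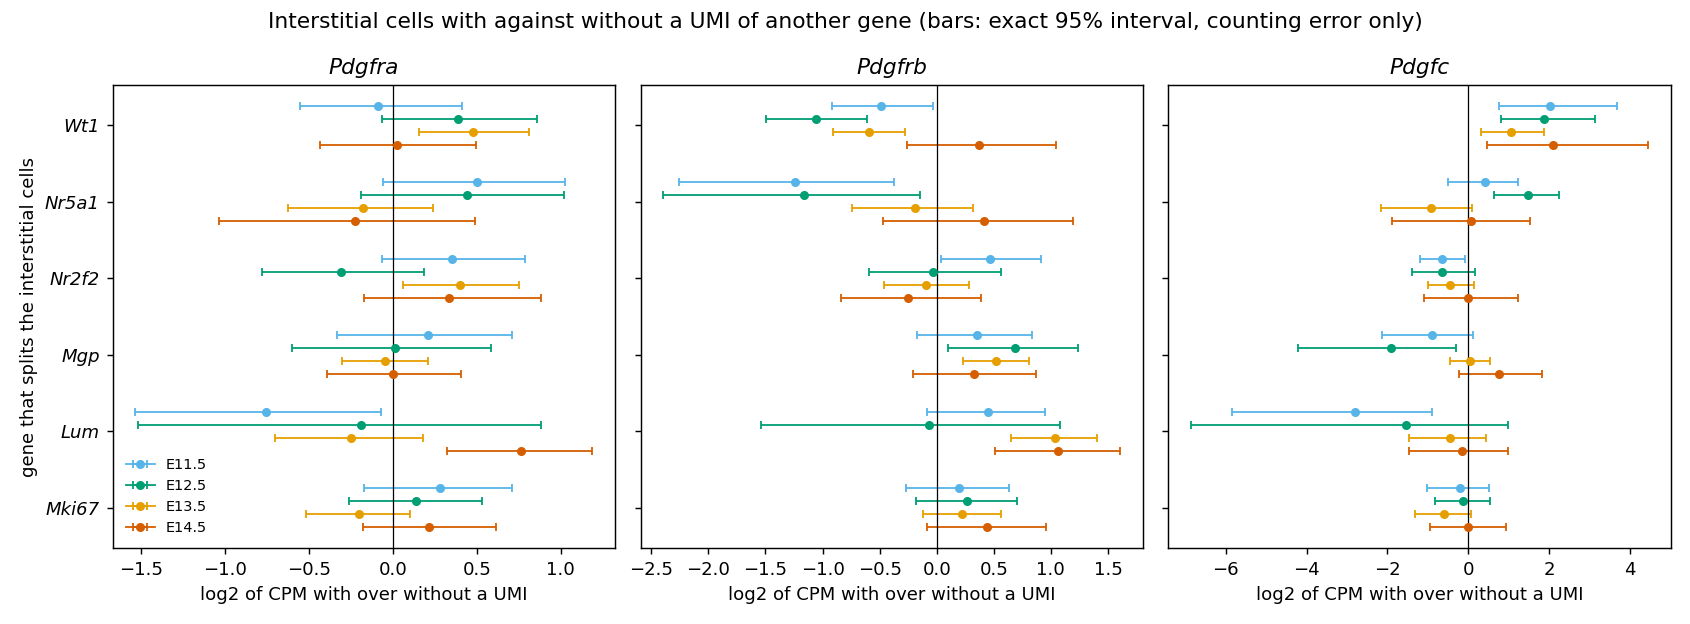
Log2 ratio of Pdgfra, Pdgfrb and Pdgfc levels (CPM) between interstitial cells with and without a UMI of another gene, by stage, with exact 95% intervals from the split of the counts. Pdgfrb lies right of 0 for Lum at E13.5 and E14.5 and left of 0 for Wt1 at the earlier 3 stages, Pdgfc lies right of 0 for Wt1 at all 4 stages, and most Pdgfra intervals cross 0.

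A list of 52 further genes of the pathway was set beside the receptors, grouped as ligand processing, signal transduction, feedback and related receptors. Between interstitial and supporting cells, 29, 31, 31 and 26 of the 52 met the minimums in stage order. Of these, 12, 8, 9 and 7 were called higher in interstitial cells and 2, 2, 2 and 2 lower. Over all genes tested, 12.2, 11.1, 10.4 and 10.4% were called higher and 10.5, 10.4, 11.7 and 12% lower. The median log2 ratio of those that met the minimums was 0.26, 0.44, 0.14 and 0.04, beside 0.13, 0.10, 0.04 and -0.00 over all genes tested. Spry2, Pcsk5, Sparc and Pik3r1 were called higher at all 4 stages, and Kitl and Pcsk6 lower at all 4.

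Among genes of the list with UMIs in both classes at all stages, the 5 highest mean ratios belonged to feedback and response genes (Spry4, Spry1, Etv4, Spry2 and Dusp6). Others of these 12 genes were low, with mean log2 ratios of -0.34 for Ier3, -0.05 for Fos and 0.47 for Srf. Spry4 had a mean log2 ratio of 3.72 on 9 to 29 interstitial UMIs, too few for a call, and Spry1 had 3.51, called at 3 stages. Both encode Sprouty proteins, which dampen receptor tyrosine kinase signalling and respond to several growth factors, FGFs among them. Spry1 was at 24.9, 20.7, 20.2 and 14.6 CPM in interstitial and 1.46, 1.66, 1.42 and 2.65 in supporting cells. Etv4, an ETS factor gene induced by the same kinases, came next with 2.71 and was not called. Flt4 had 4.12 from 1 stage alone, on 5 and 1 UMIs. In the other direction stood Kitl, the ligand of KIT on germ cells, with -3.73, the convertase gene Pcsk6 with -2.40 and Furin with -0.72. Kitl was at 20.6, 31.5, 17.8 and 27.5 CPM in interstitial and 239, 422, 282 and 348 in supporting cells. Furin, another convertase that can process PDGF chains, was not called at any stage.

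Between E11.5 and E14.5 in interstitial cells, 28 of the 52 met the minimums, of which 2 were called higher and 4 lower, against 3.83 and 3.52% of all genes tested. Dusp6, a phosphatase that switches off ERK, was at 80.7, 84.7, 43.6 and 13.7 CPM, a log2 change of -2.55 (-3.14 to -2.02). Plat, which encodes tissue plasminogen activator, a protease that activates plasminogen and can also cleave PDGF-C, was at 128, 56.1, 52.1 and 48.3 CPM (-1.40, -1.72 to -1.10). Slc9a3r1, a scaffold that binds PDGF receptors, changed by -1.90 and Pcsk5, a convertase, by -1.30. Higher were Pdgfrl, a receptor-like gene without a kinase domain, at 5.60 and 28.8 CPM (2.36, 1.65 to 3.13), and Ptpn11, which encodes the phosphatase SHP2, at 41.2 and 95.3 CPM (1.21, 0.91 to 1.51). Pdgfd, the remaining ligand gene, had 32, 10, 26 and 4 interstitial UMIs and never met the minimums there.

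Genes with the most similar profiles over the 20 class and stage profiles were listed for each member, among 13260 genes with at least 200 UMIs. The r values describe profiles that share classes and libraries. For Pdgfa they were Prkcz (r = 0.97), Dsp (0.96), Elf3 (0.95), Msx2 (0.94) and Mt2 (0.94). Mt2, a metallothionein gene listed because of this r, was like Pdgfa lower in germ cells and higher in surface epithelium at E14.5 than at E11.5. It was at 493, 475, 306 and 91.4 CPM in germ cells and 21.6, 31.7, 96.8 and 306 in surface epithelium. For Pdgfb they were Gimap4, Tie1, Mfng, Fam167b and 8430408G22Rik, all at r = 0.99. Tie1 encodes an endothelial receptor kinase. It was at 135 to 163 CPM in endothelial cells and at most 0.615 elsewhere.

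For Pdgfc the list was Flnc (0.97), Zcchc3 (0.97), Slc1a6 (0.97), Jsrp1 (0.96) and Hoxc5 (0.95). Flnc, which encodes the actin crosslinker filamin C, was at 79.8, 89.1, 90.0 and 52.6 CPM in surface epithelium. For Pdgfra the list was Wnt5a (0.98), Igfbp5, Csdc2, Palld and Hoxc10 (the last 4 at 0.97). Wnt5a, a secreted WNT ligand, was at 98.8, 103, 147 and 146 CPM in interstitial cells, with the later pair of libraries above the earlier pair, as for Pdgfra. For Pdgfrb it was Svep1 (0.97), Twist1 (0.97), Islr (0.96), Frem1 (0.96) and Rem1 (0.96). Twist1, a mesenchymal transcription factor, was at 5.32 to 12.47 CPM in interstitial cells and at most 1.96 in any other class. The correlation of Pdgfra with Pdgfc was 0.84, and that of Pdgfa with Pdgfra was -0.17.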

How the data were processed

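Single cells of XX gonads at 4 stages were read with 1 library each, and the genes and lists were chosen with earlier results of these data known. The submitters' processing notes name Cell Ranger 2.2.0 and mm10, and the cell filter and normalization tool are not given in the sources used here. The deposited values are natural log values, ln(1 + UMIs per 10000 UMIs of the cell), a unit read from the values. All 69792436 values above 0 (100%) were whole multiples of their cell's smallest value at a relative tolerance of 1e-06, and the sum of multiples equalled the implied total in all 19387 cells, so the UMI counts used were recovered from the deposited table. 0 columns were left unused.

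Cells with over 20% mitochondrial UMIs (0 to 3 per library) or fewer than 200 genes (0) were left out. Doublets were scored with a re-implemented Scrublet-type score (2 simulated doublets per cell, assumed rate 0.06, 2000 variable genes, 30 components) and 109, 87, 89 and 76 cells were removed. Gates were applied to the recovered UMIs. The class rule was narrowed to cells meeting exactly 1 gate, and the gates as worded are an alternative. Levels have exact Poisson intervals, ratios exact intervals from the binomial split, and shares Clopper-Pearson intervals, all at 95% and for counting error only. With 1 library per stage there is no replicate error, so no test was made. The size rule was tested on simulated counts. Named genes were the members, the pathway list (all counted, and those with the 3 highest ratios either way given with values), the genes that split interstitial cells and the 5 genes most like each member. The split by 1 of the listed genes is not reported here. Splits of germ, supporting and surface epithelial cells were added later. The Mki67 split of supporting and surface epithelial cells was run for Pdgfa, Pdgfc and Pdgfra. Of these, only Pdgfra in supporting cells is reported. Genes were matched to RefSeq tables of GRCm38.p6, the assembly that mm10 names, for positions (5 of 5) and upstream sequence (3 of 5). Python 3.11.15, numpy 2.4.6, scipy 1.17.1, pandas 2.3.3, scikit-learn 1.9.0 and matplotlib 3.10.9 were used. Alternatives covered gates, doublets, scaling, a minimum depth of 9791 UMIs, thinning and the thresholds.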

Additional observations from a re-analysis of the deposited data

Results flagged for a closer look

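The change of Pdgfa between E11.5 and E14.5 ran in opposite directions in surface epithelium and germ cells, and the difference of the log2 changes was 2.67. With 1 library per stage this difference was not tested. The germ cell level went from 209 to 98.8 CPM and the surface epithelial level from 34.9 to 105.

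Cells with UMIs of at least 2 of Rgs5, Cspg4, Notch3, Kcnj8 and Abcc9 and no class gate, 53, 59, 60 and 16 in stage order, are in none of the classes compared in the report. Their Pdgfrb level was 109.8, 93.9, 201 and 185 CPM in stage order, above that of germ cells of the same libraries (at most 1.35). Interstitial cells of the same libraries were at 57.6 to 72.6 CPM. Their Pdgfra level was 43.9, 36.3 and 51.7 CPM in the earlier 3 libraries, where interstitial cells were at 72.3, 72.9 and 106. They had no Pdgfb UMI in any library. Values resting on fewer than 20 UMIs are not listed here, a minimum chosen after values had been seen.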

How the results depend on the processing

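With the gates as worded, which keep cells of more than 1 gate, an alternative run for each call after the data had been seen, 52 of 62 called differences of the 5 genes stayed called in the same direction and 10 ended. The 10 were Pdgfa in 5 comparisons, Pdgfc over interstitial cells in 3, Pdgfra in surface epithelium over supporting cells at E14.5 and Pdgfrb in endothelial against interstitial cells at E14.5. A further 2 differences were called only with these gates. The other alternatives were not run for single calls. With the same gates the Pdgfa change in supporting cells was 0.65 in place of -0.13, and 4 mean log2 ratios were smaller. They were Pdgfra interstitial over supporting 2.59 (from 3.09), Pdgfrb 4.15 (from 5.22), Pdgfa supporting over interstitial 1.05 (from 1.72) and Pdgfc surface epithelial over interstitial 0.52 (from 1.33). Stricter gates (2 UMIs per gate gene, 4 listed markers) gave 3.31 for Pdgfra interstitial over supporting, 1.38 for Pdgfa supporting over interstitial and 0.90 for Pdgfc. For Pdgfb endothelial over interstitial they gave 4.37 (from 5.51, with interstitial counts under 3 taken as 3). Interstitial Pdgfb counts were 0, 0, 1 and 1, so the 5.51 rests on that floor in every library and is a lower bound. The floor in CPM follows the size of the class, so the lower value is not read as dependence on the gate. Scaling by medians of gene ratios gave -1.48 for Pdgfa in germ cells (from -1.08). The share of interstitial cells with both receptors at E14.5 was 25.2% without thinning and 2.48% at 2500 UMIs, since it follows depth. The 445 genes called in interstitial cells between E11.5 and E14.5 were 878 with no minimums and 78 at a ratio of 4. By medians of gene ratios they were 305 higher and 148 lower, in place of 232 and 213. Keeping doublets, or only cells of at least 9791 UMIs, moved none of 12 results beyond its interval. Counts below about 20 UMIs, mainly in endothelial cells at E14.5, limit what the depth can show. The alternatives for Pdgfa in germ and surface epithelial cells were chosen after seeing the data. No paired analysis was possible because each stage has 1 library.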

Other observations

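Megakaryocyte-like cells (UMIs of at least 2 of Pf4, Ppbp, Itga2b and Gp9) numbered 30, 14, 6 and 6. Platelets and their precursors are a known source of PDGF. Their Pdgfb counts were 9, 1, 3 and 3 UMIs, or 12.8, 3.13, 19.6 and 20.6 CPM, which is few UMIs to read a level from. Cells meeting the interstitial and the surface epithelial gate carried more Pdgfra than surface epithelium alone at each stage (41.2, 44.2, 69.3 and 72.8 CPM) and had Pdgfrb at 3.37, 15.7, 13.3 and 20.05 CPM.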
